A study of Rattus norvegicus with 15 samples.

Results

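The 3 genes described here are the insulin genes Ins1 and Ins2 and the amylin gene Iapp, taken by their symbols from a count table of 28914 genes. The libraries came from isolated pancreatic islets of 15 Lewis rats, collected 10 weeks after surgery. Surgery took out 90% of the pancreas in 10 of them (partial pancreatectomy, Px) and was a sham operation in 5 (Sham). The labels give an age of 4-5 weeks and do not say when in the study it applied. The labels state no genotype, transgene or drug for any rat, and all 15 titles carry the mark Inc_YES, which is not explained. The average blood glucose in the labels, given without a unit, was 88 to 96 in Sham (n = 5), 104 to 211 in 7 Px rats (lower-glucose Px) and 416 to 464 in the other 3 (higher-glucose Px), and the boundary of 300 between the Px groups was set from these labels alone. Each numbered library was taken as a rat of its own. The labels do not say so outright, and p-values measure only the spread between these libraries.

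Rats and mice carry a pair of insulin genes. Ins2 keeps the ancestral structure, while Ins1 arose from an Ins2 transcript that was copied back into the genome and lacks one of the introns. Both encode preproinsulin, which enters the endoplasmic reticulum of the beta cell, folds around disulfide bonds and is cut by prohormone convertases into insulin and C-peptide in the secretory granule. Iapp encodes amylin (islet amyloid polypeptide), a beta cell peptide stored with insulin and released with it, which slows stomach emptying and limits food intake. Rat amylin does not form the amyloid fibrils that human amylin forms.

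The windows around the start sites of the 3 genes are shown because Ins1 and Ins2 are compared with each other throughout and share much of the sequence that drives them. Each runs 5′ to 3′ from 250 bases before the start to 50 bases after it, in the RefSeq annotation of the rat assembly GRCr8, which is not stated to be the build of the counts. Capitals mark matches on either strand to TAAT (the core read by homeodomain factors such as Pdx1), CATCTG (an E box), TGACG (the core of a cAMP response element) and TATAAA (the letters of a TATA box).
Ins1, chr1:261185869-261186168, + strand: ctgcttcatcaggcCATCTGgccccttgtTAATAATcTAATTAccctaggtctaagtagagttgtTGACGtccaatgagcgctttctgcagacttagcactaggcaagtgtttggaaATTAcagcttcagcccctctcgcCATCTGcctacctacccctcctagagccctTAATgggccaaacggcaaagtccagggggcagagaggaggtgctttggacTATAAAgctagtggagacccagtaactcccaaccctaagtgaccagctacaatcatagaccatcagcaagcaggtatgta
Ins2, chr1:207273756-207274055, - strand: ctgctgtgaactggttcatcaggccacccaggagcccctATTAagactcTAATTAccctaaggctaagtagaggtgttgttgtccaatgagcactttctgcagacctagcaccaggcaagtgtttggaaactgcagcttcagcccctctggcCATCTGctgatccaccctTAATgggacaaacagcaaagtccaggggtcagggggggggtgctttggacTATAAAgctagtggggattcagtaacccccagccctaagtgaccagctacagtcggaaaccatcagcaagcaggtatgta
Iapp, chr4:176967847-176968146, + strand: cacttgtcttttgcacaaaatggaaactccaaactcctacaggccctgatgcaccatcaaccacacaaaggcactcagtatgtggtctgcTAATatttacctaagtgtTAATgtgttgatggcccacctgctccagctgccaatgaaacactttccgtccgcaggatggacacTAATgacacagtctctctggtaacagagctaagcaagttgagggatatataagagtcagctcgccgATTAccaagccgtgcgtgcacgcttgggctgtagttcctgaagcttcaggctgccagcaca
In a global alignment of the Ins1 and Ins2 windows, 253 of 288 aligned base pairs were identical (87.8%), with 24 gap bases. Each insulin window was less like the Iapp window, at 60.9% for Ins1 and 64.5% for Ins2. Matches to TAAT numbered 6 in Ins1, 4 in Ins2 and 4 in Iapp, where 13.2% of the 33469 windows in the reference held 4 or more and 60.6% held at least 1. The E box letters CATCTG stood at 2 places in Ins1 and 1 in Ins2, against 16.6% of all windows with a match. TGACG was found in Ins1 only (21.2% of all windows), and TATAAA in both insulin genes (14.2% of all windows), in each with its first base 30 bases before the start. Variants of these letters were not searched for, so the lack of a TATAAA match in Iapp does not show that it lacks a TATA box. Among these matches, 2 pairs overlapped in Ins1 and 1 pair in Ins2. These are matches of letters in a window, not measured binding sites.

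In the count table Ins1 lies on chromosome 1 at 272799784 to 272800347 on the + strand, with 2 exons that add to 445 bases. Ins2 lies on the same chromosome at 215856971 to 215858034 on the - strand, with 3 exons and 446 bases. Iapp lies on chromosome 4 at 176510696 to 176516083 on the + strand, with 3 exons and 466 bases. The sources used here do not give the build of these coordinates. Slco1a2, on the opposite strand, spans Iapp without sharing exon bases with it. The rule by which reads that fit both Ins1 and Ins2 were counted is also not given. The share of such reads was not computed, and they could affect both the split between these genes and their sum.

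Each Sham library held 12.2 to 18.4 M counts and each Px library 19.1 to 33.4 M. The lowest count of any of the 3 genes in any library was 107741, where counting error is 0.305% of the value, far below the spread between rats. The libraries differed in exocrine content. The 29 acinar markers, genes of the enzyme-secreting cells that surround islets, held 1.16 to 16.4% of the counts in Sham, 22.4 to 52.9% in lower-glucose Px and 33.4 to 43.3% in higher-glucose Px, and none was at 0 throughout Sham. All 8 beta cell markers tested were called lower in Px than in Sham, against 30.2% of all genes tested. In whole islets, fewer beta cells and less RNA of these genes per beta cell cannot be told apart. The levels below are counts per 1000000 (CPM) after TMM scaling, which sets libraries against each other by their bulk of genes, and levels compared between genes are transcripts per 1000000 (TPM), which also divide by exon length.

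Per length, Ins1 was the most abundant of the 3 genes in all 15 libraries. Its TPM averaged 320011 ± 77945 (SD, n = 5) in Sham, where it ranked first among all genes in 5 of 5 libraries. Ins2 followed at 82717 ± 24519 TPM (SD, n = 5) and Iapp at 57677 ± 8659 TPM (SD, n = 5). Ins2 and Iapp were not separated in Sham, since Iapp stood above Ins2 in 2 of 5 libraries. In lower-glucose Px the same order held on average, at 113049 ± 42105, 33796 ± 14099 and 22623 ± 7704 TPM (SD, n = 7), with Iapp above Ins2 in 1 of 7. In higher-glucose Px the order of the last pair turned. Ins1 averaged 54954 ± 14701 TPM, Iapp 20012 ± 9612 TPM and Ins2 11786 ± 2101 TPM (SD, n = 3), and Iapp stood above Ins2 in 3 of 3. Ins1 kept the first rank among all genes in 4 of 7 lower-glucose Px libraries and in 0 of the 3 higher-glucose ones, where it ranked between 4 and 6 while Ins2 ranked between 15 and 19. As a share of all counts, Ins1 held 6.83 to 17.0% in Sham, 2.09 to 6.24% in lower-glucose Px and 1.90 to 2.81% in higher-glucose Px. TPM and shares are diluted by any other abundant RNA in a library, the acinar markers included.

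**Figure D1:**
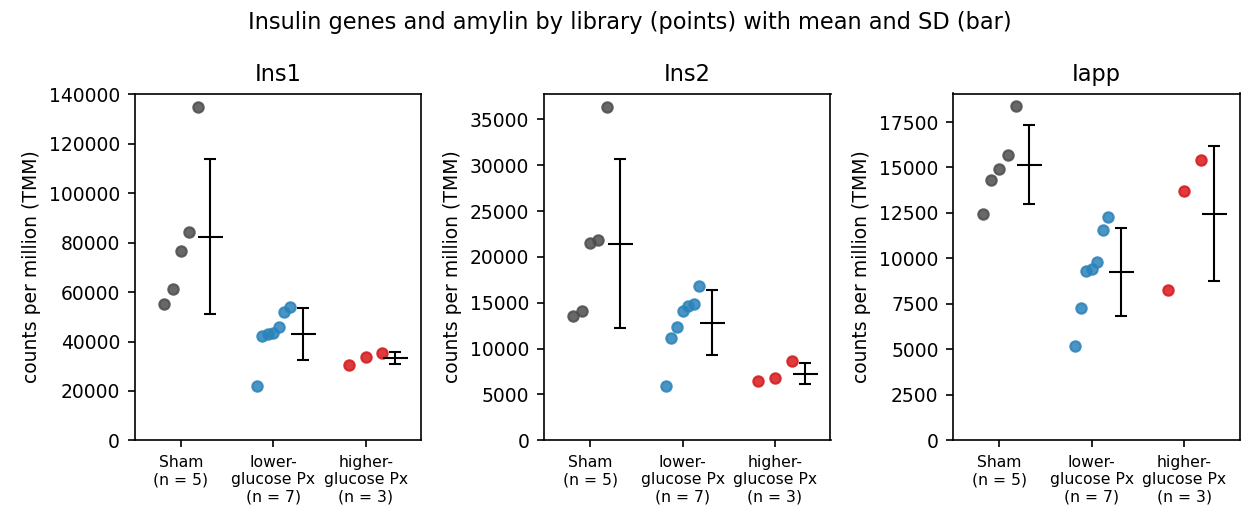
CPM after TMM scaling, on a linear axis from 0, of Ins1, Ins2 and Iapp by group (Sham, n = 5; lower-glucose Px, n = 7; higher-glucose Px, n = 3); points are libraries, sorted by value within a group, and bars are the mean and SD. All 10 Px libraries lie below the 5 Sham libraries for Ins1, whereas 2 of the 3 higher-glucose libraries lie above every lower-glucose library for Iapp.

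Both insulin genes were called lower in Px islets than in Sham islets, Ins1 to 48.9% and Ins2 to 52.3% of the Sham level, while Iapp stood at 67.7% and missed the threshold. Over all genes tested in this comparison 30.2% were called lower, so a call for 2 of 3 genes is read against a wide background of change. Ins1 measured 76605, 61280.3, 55251, 134757 and 84469 CPM in the Sham libraries 23, 24, 25, 26 and 27. In lower-glucose Px it ran from 21825 over a median of 43532 to 54056 CPM, and in the higher-glucose libraries 13, 15 and 19 it measured 35199, 30529.6 and 33922 CPM. All 10 Px values were below all 5 Sham values, as for 16.7% of all genes tested. The log2 difference of Ins1 was -1.03 ± 0.31 (SE, 95% interval -1.69 to -0.37, edgeR adjusted p = 0.00816).

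Ins2 measured 21550.5, 13536, 14063, 36288 and 21840.3 CPM in the same order of Sham libraries. It ran from 5885 over a median of 14098 to 16839.9 CPM in lower-glucose Px, and measured 8602, 6461 and 6770.3 CPM in higher-glucose Px. Of the 10 Px values 6 were below the Sham range, 3 of 7 at lower and 3 of 3 at higher glucose (24.1% of all genes tested had all 3 below), so that Sham and lower-glucose Px overlapped. The log2 difference of all Px from Sham was -0.94 ± 0.31 (SE, 95% interval -1.59 to -0.28, edgeR adjusted p = 0.014). Sham library 26 had the highest Ins1 and Ins2 levels of all libraries, and without it Ins2 changed by -0.67 and missed the threshold (edgeR adjusted p = 0.073).

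Iapp was the steadiest of the 3 genes among Sham rats, at 12463, 14299, 14901, 15708 and 18406 CPM. It ran from 5168 over a median of 9428 to 12277 CPM in lower-glucose Px, all 7 below the lowest Sham library (18.7% of all genes tested showed this). The higher-glucose libraries measured 13694, 8279 and 15426 CPM, and 2 of these 3 lay inside the Sham range. The log2 difference of all Px from Sham was -0.56 ± 0.24 (SE, 95% interval -1.07 to -0.05, edgeR adjusted p = 0.0503), just outside the threshold of 0.05. It passed without higher-glucose library 13 (edgeR adjusted p = 0.0451), without higher-glucose library 19 (0.0254) or without Sham library 23 (0.0426), and in limma voom (0.0171). The authors' deposited table gives log2 fold changes of -1.01, -0.94 and -0.60 for Ins1, Ins2 and Iapp, with adjusted p-values of 0.000831, 0.00852 and 0.0171.

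The Px libraries were then split by glucose, since 3 rats had values far above the rest. In lower-glucose Px all 3 genes were called lower than in Sham, where 30.0% of all genes were. The log2 differences were close to each other, at -0.93 ± 0.32 for Ins1 (SE, edgeR adjusted p = 0.0183), -0.74 ± 0.30 for Ins2 (0.0384) and -0.71 ± 0.24 for Iapp (0.018). These calls rested on few libraries. Ins1 lost its call without Sham library 26 (-0.68, edgeR adjusted p = 0.0753) and Iapp without Sham library 27 (-0.63, edgeR adjusted p = 0.0509). Ins2 lost it when any of Sham libraries 23, 26 or 27 or of lower-glucose Px libraries 4, 10, 11 or 14 was left out, with edgeR adjusted p-values from 0.0517 to 0.166. In higher-glucose Px both insulin genes were called lower than in Sham, Ins1 by -1.31 ± 0.42 (SE, edgeR adjusted p = 0.0149) and Ins2 by -1.56 ± 0.40 (SE, edgeR adjusted p = 0.00327), against 25.5% of all genes called lower, and both kept the call without any 1 library. Iapp was not called there, at -0.28 ± 0.31 (SE, 95% interval -0.94 to 0.37, edgeR adjusted p = 0.451), and this value ran from -0.06 without higher-glucose library 15 to -0.47 without library 19.

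The difference between the Px groups themselves was called for none of the 3 genes, where 4.88% of all genes were called in either direction, 3.29% higher and 1.59% lower at higher glucose. Ins2 came nearest, lower at higher glucose by -0.82 ± 0.37 (SE, 95% interval -1.60 to -0.04, edgeR adjusted p = 0.199). Its 3 higher-glucose values lay below 6 of the 7 lower-glucose values, the exception being lower-glucose library 11. Ins1 differed by -0.38 ± 0.39 (SE, 95% interval -1.20 to 0.44, edgeR adjusted p = 0.576) and Iapp by 0.43 ± 0.29 in the other direction (SE, 95% interval -0.17 to 1.03, edgeR adjusted p = 0.379). These intervals leave room for differences of more than 1 log2 unit in either insulin gene. The Iapp value was 0.65 without higher-glucose library 15 and 0.25 without library 19. DESeq2 called Ins2 (-0.83, adjusted p = 0.0483) in this comparison.

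The size of the fall depended on what the islet RNA was measured against. Scaling by library totals alone moved the median of all genes by -0.62 in Px against Sham, and gave -1.64 for Ins1, -1.51 for Ins2 and -1.25 for Iapp, each called (edgeR adjusted p = 0.000132, 0.000848 and 0.000111). Scaling by the summed counts of 8 genes of the endocrine secretory granule moved the median of all genes by 0.61 the other way. Of these 8 genes 4 were themselves called lower in Px after TMM scaling, with a median of -0.42. On that scale Ins1 changed by -0.39 (edgeR adjusted p = 0.233), Ins2 by -0.28 (0.47) and Iapp by -0.01 (0.972), and none was called. For higher-glucose Px against Sham the same scale left both insulin genes called, at -0.87 (edgeR adjusted p = 0.046) and -1.11 (0.0202), with Iapp at 0.13 (0.649). After TMM scaling the 8 granule genes had a median difference from Sham of -0.02 in higher-glucose Px and -0.64 in lower-glucose Px. This scale therefore does not shift the Px groups alike. When the mean log2 CPM of the acinar markers entered the fit as a covariate, the Px difference was -0.43 for Ins1 (edgeR adjusted p = 0.542), -0.02 for Ins2 (0.98) and -1.13 for Iapp (0.0634). Acinar content and surgery largely separate the same libraries, so their parts in the fall cannot be told apart by this fit.

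**Figure D2:**
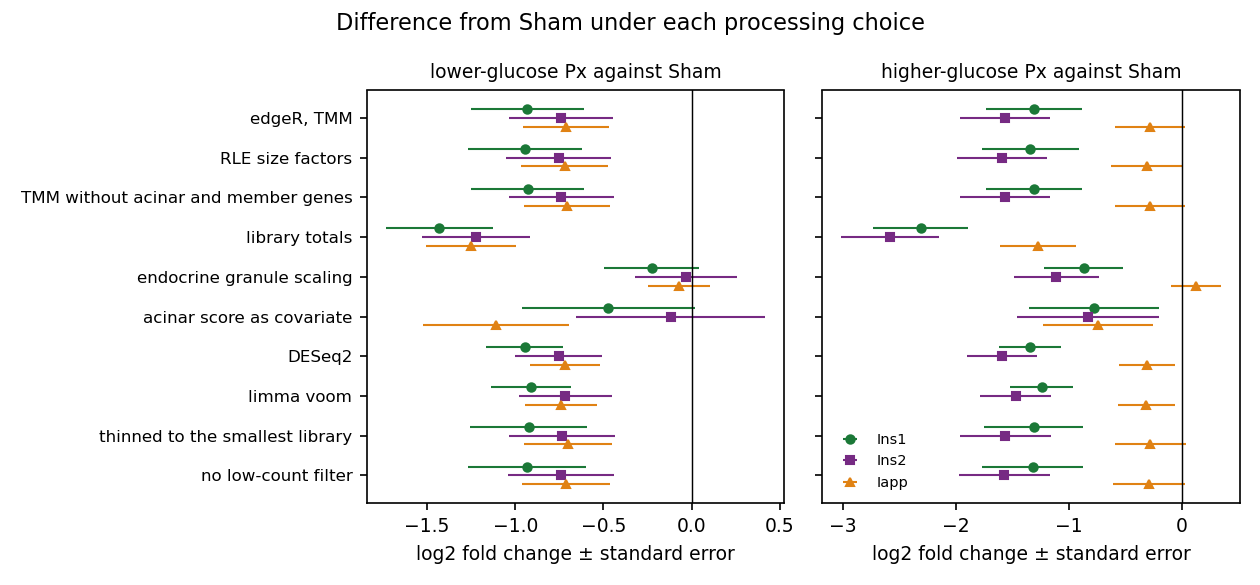
Log2 fold change with its standard error (x axis) of Ins1, Ins2 and Iapp for lower-glucose Px against Sham (left) and higher-glucose Px against Sham (right), under 10 processing choices (rows). Ins1 runs from -1.43 with library totals to -0.23 with endocrine granule scaling on the left. On the right it runs from -2.31 to -0.78, the latter with the acinar covariate, and Iapp crosses 0 with endocrine granule scaling (0.13).

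Ratios of counts within a library are free of any scaling factor, and 7 ratios were compared in 4 pairs of groups with exact two-sided permutation tests. None of the 28 tests passed after Benjamini-Hochberg adjustment over all of them, the smallest adjusted p being 0.1. The smallest exact permutation p possible is 0.0357 for 3 against 5 libraries and 0.0167 for 3 against 7. Tests with the higher-glucose group could thus pass only if many of the 28 had comparably small p-values. The ratio of Ins2 to Ins1 was 0.221 to 0.281 in Sham, 0.238 to 0.346 in lower-glucose Px and 0.200 to 0.244 in higher-glucose Px. Between the Px groups the ratio was lower at higher glucose by -0.43 on the log2 scale, with 2 of 3 higher-glucose values below all lower-glucose ones (exact permutation p = 0.0333, adjusted p = 0.1). For all Px against Sham the log2 ratio differed by 0.07 (exact permutation p = 0.604, adjusted p = 0.705), with an SD of 0.28 among the Px libraries and 0.13 among the Sham libraries. The means of the Px groups lay on opposite sides of Sham. Lower-glucose Px differed by 0.20, with 4 of 7 libraries above every Sham library (exact permutation p = 0.0859, adjusted p = 0.172). Higher-glucose Px differed by -0.23, with 2 of 3 below every Sham library (exact permutation p = 0.0714, adjusted p = 0.167).

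Relative to the insulin genes, Iapp had its highest mean ratio in the higher-glucose rats. There were 0.433 to 1.06 Iapp counts per Ins2 count in Sham, 0.367 to 1.58 in lower-glucose Px and 1.28 to 2.28 in higher-glucose Px. The higher-glucose ratio lay above Sham by 1.16 on the log2 scale, in 3 of 3 libraries above every Sham library (exact permutation p = 0.0357, the smallest that 3 against 5 libraries allow, adjusted p = 0.1). It lay above lower-glucose Px by 1.20, in 2 of 3 libraries above all 7 (exact permutation p = 0.0333, adjusted p = 0.1). Iapp per Ins1 count ran from 0.117 to 0.270 in Sham, from 0.121 to 0.426 in lower-glucose Px and from 0.271 to 0.455 in higher-glucose Px. Against Sham the log2 difference at higher glucose was 0.92 (exact permutation p = 0.0357, adjusted p = 0.1), and at lower glucose 0.16 (exact permutation p = 0.654, adjusted p = 0.733).

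**Figure D3:**
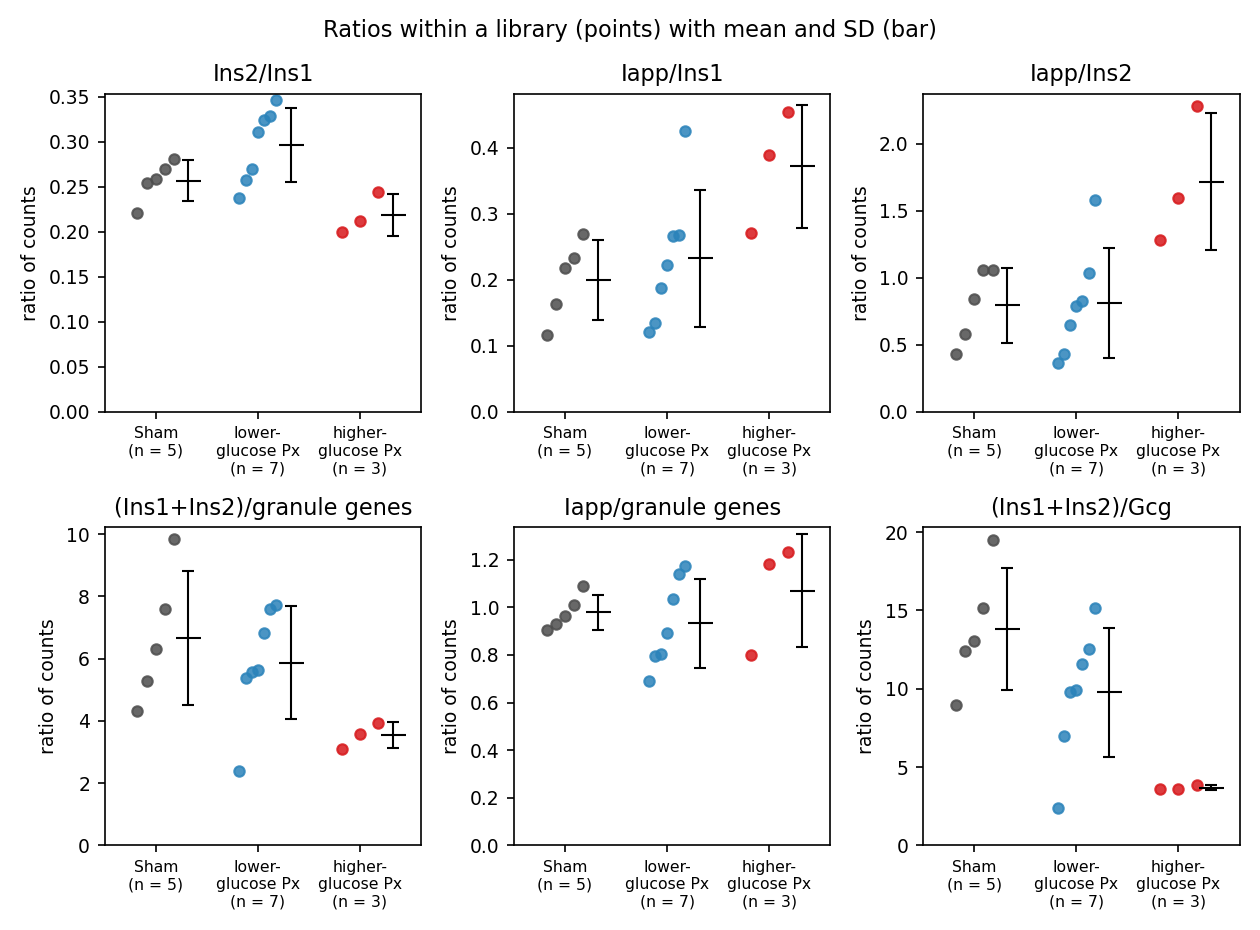
Ratios of counts within each library (linear axes from 0) for the pairs of members and for insulin or amylin over the 8 granule genes and Gcg, by group; points are libraries, sorted by value within a group, and bars are the mean and SD. Iapp per Ins2 count lies at 1.28 to 2.28 in higher-glucose Px, above the Sham range of 0.433 to 1.06.

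The insulin genes and Iapp were next set against other secretory genes of the islet. The summed insulin counts were 4.33 to 9.86 times those of the 8 granule genes in Sham (chromogranins, secretogranins and processing enzymes carried by several endocrine cell types), 2.40 to 7.73 times in lower-glucose Px and 3.11 to 3.94 times in higher-glucose Px. At higher glucose this ratio lay below Sham by -0.86 on the log2 scale, with 3 of 3 libraries below every Sham library (exact permutation p = 0.0357, adjusted p = 0.1). The granule genes themselves had a median log2 difference from Sham, after TMM scaling, of -0.02 at higher and -0.64 at lower glucose. Iapp per granule count was 0.905 to 1.09 in Sham, 0.688 to 1.18 in lower-glucose Px and 0.799 to 1.23 in higher-glucose Px, with a log2 difference of all Px from Sham of -0.03 (exact permutation p = 0.827, adjusted p = 0.891). A larger p here does not show that the ratios are equal.

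Hormone genes of other islet cells gave the last ratios. Insulin counts were 8.94 to 19.5 times those of Gcg, the glucagon gene of alpha cells, in Sham. They were 2.37 to 15.2 times in lower-glucose Px and 3.59 to 3.86 times in higher-glucose Px, all 3 of the latter below the Sham range. For all Px against Sham the log2 difference was -1.0, with 5 of 10 libraries below every Sham library (exact permutation p = 0.034, adjusted p = 0.1). Gcg averaged 7459 ± 1321 CPM in Sham (SD, n = 5), 6654 ± 2585 in lower-glucose Px (SD, n = 7) and 11004 ± 1327 in higher-glucose Px (SD, n = 3). Its lowest higher-glucose value, 9581 CPM, lay above its highest Sham value, 8786 CPM. Against Sst, the somatostatin gene of delta cells, the means of the Px groups lay on opposite sides of the Sham mean. The ratio of insulin to Sst was 94.8 to 167 in Sham, 113 to 492 in lower-glucose Px and 37.2 to 52.0 in higher-glucose Px. Of the 7 lower-glucose libraries 5 lay above the Sham range and 2 inside it, a log2 difference of 0.81 (exact permutation p = 0.0354, adjusted p = 0.1). The Px groups differed by -2.37 on the log2 scale, with no overlap (exact permutation p = 0.0167, the smallest that 3 against 7 libraries allow, adjusted p = 0.1). Sst itself averaged 749 ± 188 CPM in Sham (SD, n = 5), 241 ± 88.0 in lower-glucose Px (SD, n = 7) and 889 ± 106 in higher-glucose Px (SD, n = 3).

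Within the 7 lower-glucose Px rats glucose ran from 104 to 211. In CPM after TMM scaling, Ins1 had the strongest relation to glucose of the 3 genes, though it missed the threshold after adjustment. Pearson's r of its log2 CPM with glucose was -0.91 (exact permutation p = 0.0109, adjusted p = 0.0655 over 6 relations) and Spearman's rho was -0.89 (exact permutation p = 0.0123, adjusted p = 0.0738). Without libraries 11 and 14, those farthest from the median glucose, r was -0.62 over 5 libraries. Ins2 gave an r of -0.76 (exact permutation p = 0.0722, adjusted p = 0.217) with a rho of -0.39 (exact permutation p = 0.396, adjusted p = 0.593), and -0.48 without the same libraries. Iapp gave an r of -0.16 (exact permutation p = 0.697, adjusted p = 0.836) and a rho of -0.46 (exact permutation p = 0.302, adjusted p = 0.593). Libraries 14 and 16 had the lowest TMM factors of the group, 0.6625 and 0.6076. As a share of all counts, Ins1 held 3.45% at a glucose of 104, 2.78% at 119, 6.24% at 132 and 5.30% at 152. It held 5.06% at 155, 4.39% at 157 and 2.09% at 211, so its shares did not fall steadily with glucose. The relation of these shares to glucose was not tested. The slope on log2 glucose in edgeR was -1.10 ± 0.87 for Ins1 (SE, adjusted p = 0.749), -0.998 ± 0.72 for Ins2 (0.722) and -0.21 ± 0.60 for Iapp (0.95), where 0.00% of 13752 genes were called and 1277 had an unadjusted p below 0.05. DESeq2 called 91 genes higher and 30 lower with glucose, Ins1 among the latter (-1.13, adjusted p = 0.0299). Library 11, with a glucose of 211, had the lowest Ins1 and Ins2 of the group. Without it the Ins1 slope was -0.44 and the Ins2 slope 0.04, and without library 14 the Ins1 slope was -1.45, so that the slopes of both insulin genes depend on these rats.

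**Figure D4:**
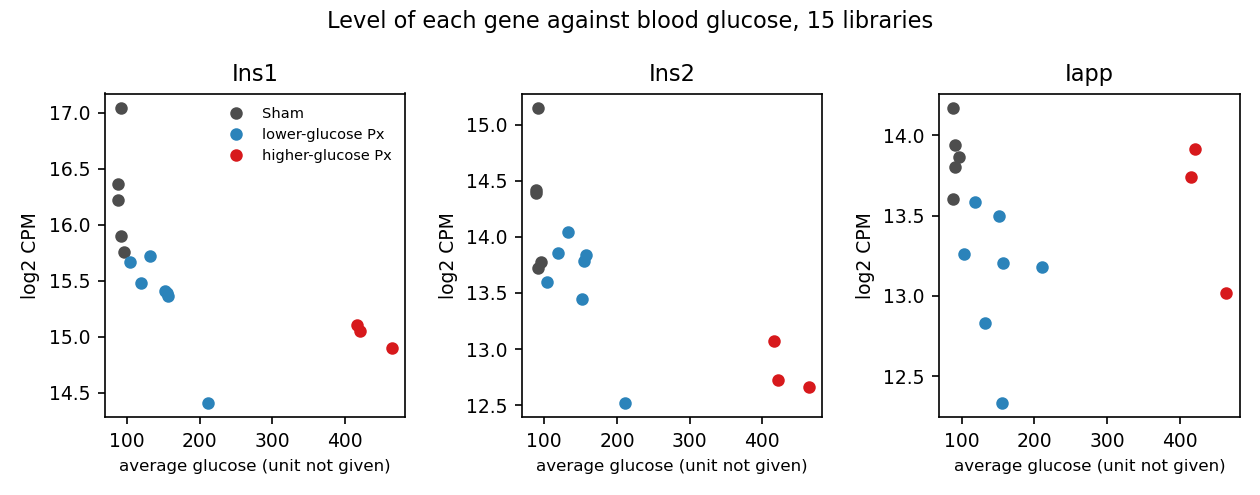
Log2 CPM after TMM scaling (y axis, not from 0) of Ins1, Ins2 and Iapp against the average blood glucose in the labels (x axis, unit not given), 1 point per library, coloured by group. Among lower-glucose Px the rat at 211 has the lowest Ins1, 21825 CPM on the linear scale, and the 3 higher-glucose rats lie below that group's median for both insulin genes.

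The factors that activate the insulin genes were lower in Px islets, and those that repress them higher. Of 14 activators tested, 13 were called lower and 0 higher, with a median log2 difference of -0.94 where the median of all genes was 0.02 and 30.2% of all genes were called lower. Nkx6-1, a homeodomain factor of mature beta cells, averaged 230.0 ± 25.97 CPM in Sham (SD, n = 5) and 75.4 ± 11.5 in Px (SD, n = 10), a log2 difference of -1.60 ± 0.10 (SE, edgeR adjusted p = 9.33e-09). Isl1, a LIM homeodomain factor of all islet endocrine cells, differed by -1.10 ± 0.08 (SE, edgeR adjusted p = 1.74e-08). For Nkx6-1 and Isl1 all 10 Px libraries lay below the Sham range, as for 16.7% of all genes tested. Pdx1, which binds the TAAT elements of the insulin promoters, fell from 38.2 ± 2.07 CPM (SD, n = 5) to 19.9 ± 3.55 (SD, n = 10), by 0.93 on the log2 scale (edgeR adjusted p = 2.11e-06). Neurod1, which binds the E boxes with its partner Tcf3, differed by -0.80 ± 0.09 (SE, edgeR adjusted p = 1.49e-06). Tcf3 was the exception in the list, at 0.23 ± 0.22 (SE, edgeR adjusted p = 0.375), and was chosen after its value was seen. Mafa, the activator that marks mature beta cells, differed by -1.01 ± 0.27 over all Px (SE, edgeR adjusted p = 0.00383) and by -0.70 ± 0.37 in higher-glucose Px (SE, edgeR adjusted p = 0.115). Between the Px groups 0 of 14 activators were called at an adjusted p of 0.05 in edgeR, where 4.88% of all genes were, with a median difference of 0.01. On the endocrine granule scale 5 of 14 activators were called lower and 1 higher, where 715 of 15199 genes were called lower and 9175 higher. Pdx1 (-0.34, edgeR adjusted p = 0.0714), Mafa (-0.38, 0.24) and Neurod1 (-0.22, 0.184) were not called on that scale. With the acinar covariate 9 of 14 activators were called lower, where 2439 of 15199 genes were. Mafa (-1.56, edgeR adjusted p = 0.0814) and Neurod1 (-0.50, 0.0541) were not called with it.

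All 6 repressors tested were called higher in Px, against 34.5% of all genes, with a median log2 difference of 2.17. Jun, a subunit of the AP-1 factor that inhibits insulin transcription, averaged 15.7 ± 1.88 CPM in Sham (SD, n = 5) and 76.2 ± 12.8 in Px (SD, n = 10), a log2 difference of 2.28 ± 0.13 (SE, edgeR adjusted p = 3.59e-09). Myc, which represses insulin transcription when raised in beta cells, differed by 3.14 ± 0.26 (SE, edgeR adjusted p = 5.99e-08) from 1.91 ± 0.59 CPM in Sham. Crem, whose short forms compete for cAMP response elements, was the repressor called between the Px groups, higher at higher glucose by 0.85 ± 0.18 (SE, edgeR adjusted p = 0.0122). The direction of all 6 held under every scaling. With the acinar covariate 4 of 6 were called higher, where 3035 of 15199 genes were, and Crem was not (0.62, edgeR adjusted p = 0.356). The repressors are also expressed outside beta cells. The 12 macrophage markers tested and the 12 fibroblast and stellate cell markers were all called higher in Px, and no marker was at 0 throughout Sham. Macrophage markers summed to 0.00433 to 0.00846% of counts in Sham and 0.0428 to 0.441% in Px, and fibroblast markers to 0.0257 to 0.0688% and 0.0820 to 0.763%. Their part in the repressor values was not tested.

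Genes of preproinsulin entry and folding showed no shared direction. Of 15 tested, 3 were called higher and 5 lower, with a median of -0.11, where 34.5% of all genes were called higher and 30.2% lower. Prdx4, a peroxiredoxin that aids oxidative folding, differed by 2.11 ± 0.52 (SE, edgeR adjusted p = 0.00197). Creld2, a disulfide isomerase induced by endoplasmic reticulum stress, differed by 0.52 ± 0.14 (SE, edgeR adjusted p = 0.00316). Dnajb9, a co-chaperone of the folding chaperone BiP, differed by -0.86 ± 0.11 (SE, edgeR adjusted p = 4.26e-06), and the oxidase Ero1a by -0.65 ± 0.12 (SE, edgeR adjusted p = 0.000115). Ero1b, the oxidase enriched in beta cells, was the folding gene called between the Px groups, lower at higher glucose by -0.59 ± 0.16 (SE, edgeR adjusted p = 0.043). On the endocrine granule scale 11 of the 15 were called higher and 1 lower, where 9175 of 15199 genes were called higher and 715 lower. With library totals 1 was called higher and 12 lower, where 2667 and 7950 of all genes were. No direction of this list is thus independent of the scaling. With the acinar covariate the 3 genes called higher turned negative and lost their calls, Prdx4 at -1.20 (edgeR adjusted p = 0.0866), Creld2 at -0.21 (0.49) and P4hb, chosen after its value was seen, at -0.63 (0.113). Acinar cells also express much of this machinery.

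The enzymes that mature insulin and amylin followed the insulin genes in part. Of 6 processing genes 4 were called lower and 0 higher, against 30.2% of all genes called lower, with a median of -0.81. Pcsk2, the convertase that completes proinsulin and pro-amylin cleavage, averaged 3675 ± 515 CPM in Sham (SD, n = 5) and 1999.9 ± 224 in Px (SD, n = 10), a log2 difference of -0.87 ± 0.13 (SE, edgeR adjusted p = 2e-05). Its partner Pcsk1 differed by -0.80 ± 0.14 (SE, edgeR adjusted p = 1e-04), and Cpe, which trims the exposed basic residues, by -0.82 ± 0.15 (SE, edgeR adjusted p = 0.000145). Pcsk1n, the inhibitor of Pcsk1, differed by -1.29 ± 0.20 (SE, edgeR adjusted p = 2.77e-05). Pam, which amidates amylin, stood at 0.03 ± 0.19 (SE, edgeR adjusted p = 0.889). Scg5, the chaperone of Pcsk2, was higher at higher than at lower glucose by 0.91 ± 0.16 (SE, edgeR adjusted p = 0.00374).

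Of 8 genes of granule cargo and membrane 4 were called lower in Px and 1 higher, where 30.2% and 34.5% of all genes were, with a median of -0.42. Slc30a8, the transporter that loads zinc for insulin crystals, averaged 1363 ± 81.0 CPM in Sham (SD, n = 5) and 568 ± 110.1 in Px (SD, n = 10), a log2 difference of -1.26 ± 0.13 (SE, edgeR adjusted p = 5.31e-07). Scg2, a secretogranin, differed by -0.88 ± 0.11 (SE, edgeR adjusted p = 4.93e-06), and Chga, chromogranin A, by -0.48 ± 0.15 (SE, edgeR adjusted p = 0.0108). Vgf, a granule protein, was the one called higher, at 1.29 ± 0.47 (SE, edgeR adjusted p = 0.0225), from a mean of 0.62 CPM in Sham, and lost that call with library totals (0.56, edgeR adjusted p = 0.239) and with the acinar covariate (0.63, 0.679). Chgb, chromogranin B, was higher at higher than at lower glucose by 0.91 ± 0.13 (SE, edgeR adjusted p = 0.000885). With Scg3, chosen after its value was seen, it made 2 of 8 granule genes called higher at higher glucose, where 3.29% of all genes were. Neither insulin gene was called in that comparison. With library totals all 6 processing genes and 6 of 8 granule genes were called lower and 0 higher, where 7950 of 15199 genes were called lower. The endocrine granule scale is built from 4 genes of each of these lists and cannot test their direction.

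Genes of the receptors for the hormones and of the partners of these receptors were mixed. Of 8 tested, 3 were called higher and 1 lower in Px, with a median of 0.07, where 34.5% of all genes were called higher. The counts followed the scaling. On the endocrine granule scale 7 were higher and 1 lower, where 9175 and 715 of 15199 genes were. With library totals 1 was higher and 5 lower, where 2667 and 7950 of all genes were. Igf1r, a receptor related to the insulin receptor, differed by -1.32 ± 0.11 (SE, edgeR adjusted p = 9.68e-08), from 70.2 ± 11.1 CPM in Sham (SD, n = 5) to 28.1 ± 4.404 in Px (SD, n = 10). Ramp1, which turns the calcitonin receptor into an amylin receptor, differed by 4.33 ± 0.41 (SE, edgeR adjusted p = 1.88e-07) from a mean of 0.08 CPM in Sham, and Calcrl by 1.07 ± 0.17 (SE, edgeR adjusted p = 2.95e-05), which lost its call with library totals (0.45, edgeR adjusted p = 0.155). Calcr, the calcitonin receptor itself, did not pass the filter on low counts. It had 0 counts in all Sham libraries and averaged 0.008 CPM in Px, with 0 in higher-glucose Px. The Ramp1 value therefore does not show a raised amylin receptor. Calcr too was chosen after its value was seen. Among genes of clearance 3 of 4 tested were called higher and 0 lower, against 34.5% of all genes called higher. Ctsd, a lysosomal protease, differed by 0.98 ± 0.13 (SE, edgeR adjusted p = 6.33e-06), and by 0.36 with library totals (edgeR adjusted p = 0.148). Bace2, a beta cell protease that cuts amylin, differed by 1.25 ± 0.22 (SE, edgeR adjusted p = 8.79e-05) and by 0.82 with the acinar covariate (edgeR adjusted p = 0.185). It was also higher at higher than at lower glucose by 0.83 ± 0.14 (SE, edgeR adjusted p = 0.00318). Ide, the insulin-degrading enzyme, stood at -0.04 ± 0.06 (SE, edgeR adjusted p = 0.569), and was chosen after its value was seen. It was called lower with library totals (-0.68, edgeR adjusted p = 0.00618) and higher on the endocrine granule scale (0.56, 0.00151).

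**Figure D5:**
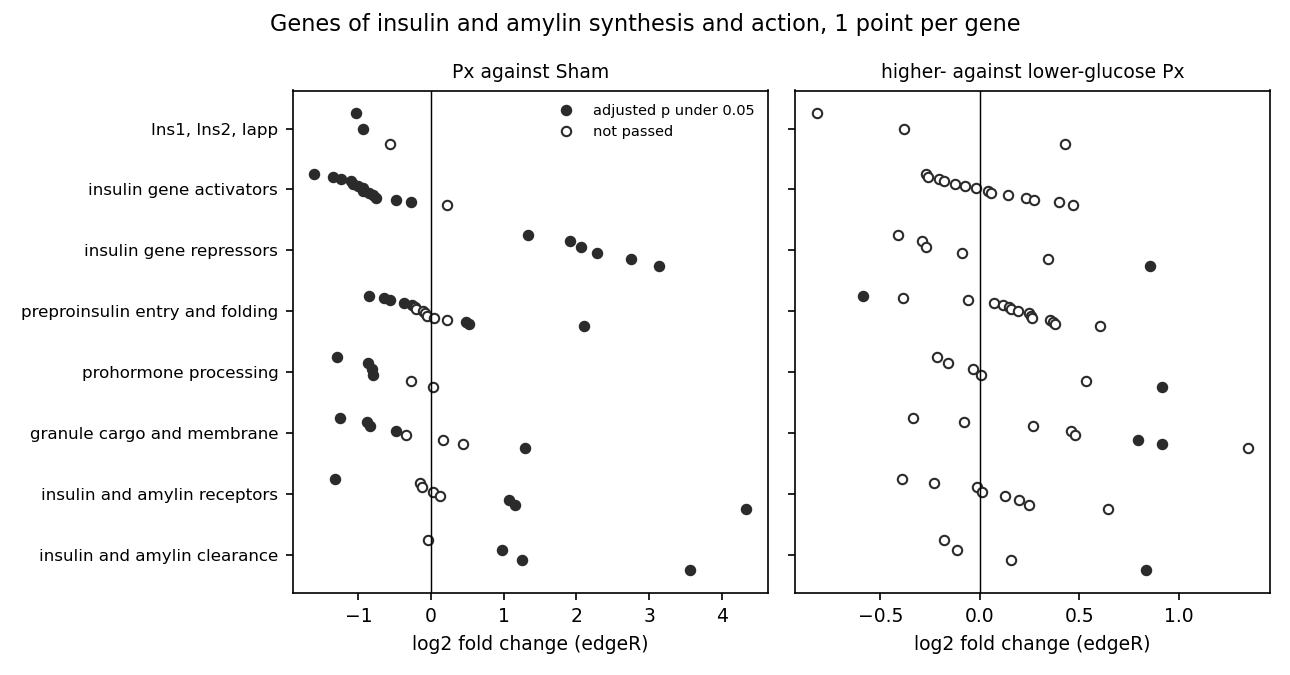
Log2 fold change in edgeR (x axis) of the 3 members and of each tested gene of the 7 lists around insulin and amylin (rows), for Px against Sham (left) and higher- against lower-glucose Px (right); 1 point is 1 gene, filled where the adjusted p was below 0.05. The 14 activators have a median of -0.94 and the 6 repressors of 2.17 for Px against Sham, and the activators a median of 0.01 between the Px groups.

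Across the 10 Px libraries the genes whose log2 CPM ran most like each member lay, apart from Ins2, outside the lists above. These likenesses are descriptions over 10 libraries that share surgery and a range of acinar content, among 9663 genes. For Ins1 the closest were Calhm2 (r = 0.94), Tgfb1i1 (0.89), Ins2 (0.89), Cops8 (0.89) and Igfbp6 (0.88). Unlike Ins1, the means of Calhm2 (1.39 CPM in Sham, 7.63 in Px), Tgfb1i1 (2.65, 12.2) and Igfbp6 (0.14, 8.20) were higher in Px. Those of Cops8 (52.4, 42.1) and Ins2 were lower. For Ins2 they were Naprt (r = 0.95), Angptl2 (0.92), Gne (0.92), Fzd2 (0.91) and Antxr1 (0.90), with Ins1 in place 7 at 0.89. All of the first 5 had a higher mean in Px than in Sham, from Gne (26.4 CPM in Sham, 27.5 in Px) to Antxr1 (1.56, 15.9), unlike Ins2. For these genes, and for Calhm2, Tgfb1i1 and Igfbp6, likeness among Px libraries thus did not extend to the direction of the difference from Sham. For Iapp they were Mdh1 (r = 0.97), Itga3 (0.94), Sec22b (0.93), Me3 (0.92) and Gpc4 (0.92). No gene stood in the first 5 of more than 1 member. Iapp itself ran with neither insulin gene, at r = -0.17 with Ins1 and -0.36 with Ins2.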

How the data were processed

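Polyadenylated RNA of rat islets was sequenced in 15 libraries. The authors deposited raw read counts per gene, with gene positions and exon lengths per the file headers. FastQC, Subread, featureCounts and limma are named in the submitters' processing notes. Versions, build, annotation and the strand and multi-read rules are not given there. The deposited comparison table holds log2 fold changes, fold changes as a ratio, average log2 expression and p-values per gene, per the file headers. Its contrast is unnamed; 98.6% of 15179 shared genes had the sign of Px minus Sham.

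Low counts were removed by filterByExpr (at least 10 in a library, 15 in all), and the rest were TMM-scaled. The two-sided quasi-likelihood test of edgeR 4.0.16 (R 4.3.3) was adjusted by Benjamini-Hochberg over all genes, at 0.05. All Px and Sham libraries formed 2 groups in the first fit; the comparisons by glucose came from 1 fit of 3 groups; the slope used the 7 lower-glucose libraries. Log2 CPM used a prior count of 2. Ratios and relations were tested by exact permutation over libraries (SciPy 1.17.1), adjusted within each family. No same-group libraries agreed within sampling noise. The fits were tested on simulated counts with 200 changed genes, as many raised as lowered. That setting lacks the wide shift between Px and Sham and cannot judge the choice of scaling. Alternatives were library totals, RLE factors, scaling by 8 endocrine granule genes (Cpe, Pam, Pcsk2, Chga, Scg5, Chgb, Scg3 and Scg2), TMM without acinar genes and members, other filters, DESeq2 1.42.0, limma 3.58.1 voom, thinned counts, a covariate for acinar content, and each library left out once.

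The members and lists were chosen with earlier results of these data known. Named genes are up to 2 higher and 2 lower per list by smallest p in Px against Sham, up to 1 each in other comparisons, a fixed panel (Pdx1, Mafa, Neurod1, Nkx6-1, Pcsk1, Pcsk2, Cpe, Pam, Slc30a8, Chga, Gcg, Sst, Ppy), and the 5 genes most like each member with a mean of at least 5 CPM. Srp54 and Cd36 were listed but not matched in the count table. Promoter windows were matched by symbol for 3 of 3 members.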

Additional observations from a re-analysis of the deposited data

Results flagged for a closer look

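Among 30 groups of values examined for a library that stands apart, 1 did: the Ins1 level of lower-glucose Px library 11 was 21825 CPM, against 42273 to 54056 CPM in the other 6 libraries of that group. Its gap to the nearest library was 0.634 of the group's range, above Dixon's 95% critical value for 7 samples. Chance alone flags about 1 in 20 groups. This rat had the highest glucose of its group, 211. Its Ins2 level, 5885 CPM, was also the lowest of the group, while its Iapp level, 9288 CPM, lay near the group's median of 9428.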

How the results depend on the processing

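Filters on low counts, thinning to the smallest library and TMM without acinar and member genes kept each call and direction of the 3 genes in the 4 group comparisons and the slope. For Px against Sham, Iapp passed with library totals (-1.25), RLE factors (-0.58), DESeq2 (-0.58) and limma voom (-0.60). Ins1 and Ins2 lost their calls with endocrine granule scaling (-0.39 and -0.28) and the acinar covariate (-0.43 and -0.023). For lower-glucose Px against Sham, granule scaling gave -0.23, -0.031 and -0.070 for Ins1, Ins2 and Iapp, and the covariate -0.47 and -0.12 for the insulin genes, none called. For higher-glucose Px against Sham, Iapp passed with library totals (-1.27) and turned with granule scaling (0.13), and the insulin genes lost their calls with the covariate (-0.78 and -0.83). Between the Px groups Iapp turned with library totals (-0.021) and Ins2 passed in DESeq2 (-0.83). The Iapp slope turned with library totals (0.52) and the covariate (0.13), and the Ins1 slope passed in DESeq2 (-1.13).

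Genes called higher and lower in Px against Sham numbered 5242 and 4596, against 2667 and 7950 with library totals, 9175 and 715 with granule scaling, and 3035 and 2439 with the covariate. For lower-glucose Px against Sham they were 3089 and 7134 with library totals, 10025 and 624 with granule scaling, and 3200 and 2743 with the covariate. For higher-glucose Px against Sham they were 1865 and 9074 with library totals and 2157 and 1720 with the covariate, and 1056 were lower with granule scaling. Between the Px groups 515 and 249 became 46 and 96 with library totals; 139 were higher with granule scaling, and 678 in DESeq2 and 123 with the covariate were lower. For the slope, 1 gene was called lower without a filter, and 91 higher and 30 lower in DESeq2.

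Leaving out 1 library at a time gave Px differences of -1.15 to -0.79 for Ins1, -1.07 to -0.67 for Ins2 and -0.65 to -0.48 for Iapp. For lower-glucose Px against Sham the ranges were -1.05 to -0.68, -0.87 to -0.47 and -0.78 to -0.60. Between the Px groups 242 to 636 genes were higher and 28 to 347 lower, with fewest when higher-glucose library 13 was left out. The Ins1 slope ran from -1.45 to -0.44 and the Ins2 slope from -1.71 to 0.040, turning without library 11. Iapp ran from 0.25 to 0.65 between the Px groups and from -0.47 to -0.06 for higher-glucose Px against Sham.

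Ratio differences that turned were small. The Iapp/Ins2 difference of lower-glucose Px from Sham was 0.017 as a linear ratio and -0.24 to 0.13 without 1 library, and that of Iapp/Ins1 -0.021 to 0.30. Iapp per granule count turned for higher-glucose Px with equal weights (-0.18), ran from -0.0098 to 0.30 there, and from -0.074 to 0.020 for all Px. Insulin per Sst for all Px ran from -0.10 to 0.32. Without libraries 11 and 14 the correlations of Ins2/Ins1, Iapp/Ins1 and Iapp/Ins2 with glucose were -0.075, -0.19 and -0.14. The cause of these changes was not tested. No paired analysis was possible because the groups share no replicate numbers. Depth limits none of the 3 genes, and the 3 higher-glucose rats limit every comparison that uses them.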
